A study of Mus musculus with 9 samples.

Results

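Described here is the wild-type (WT) initial segment of the epididymis in mice aged 4 weeks, from 3 libraries of the 9 in the series, chosen by their genotype label alone. The other 6 libraries, used as background, came from the same tissue, strain and age: 3 from mice labelled as lacking the Hippo kinases Mst1 and Mst2 (double knockout, dKO), and 3 from mice labelled as lacking Yap as well (triple knockout, tKO). All mice were C57BL/6, and the sequenced RNA was poly(A)-selected with oligo(dT) from DNase-treated total RNA. The labels give no Cre driver for the knockouts, no floxed allele for the WT mice, and no word on pooling or on whether libraries stand for separate animals. A p-value therefore measures the spread between these samples, which may be technical. In a whole-segment library, fewer cells of a type and less RNA per cell cannot be told apart.

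The initial segment is the most proximal stretch of the epididymal duct, where fluid and sperm arrive from the testis through the efferent ducts. Its tall principal cells, joined by tight junctions, take up fluid, import and export solutes, and secrete proteins that bathe and coat maturing sperm. Basal, narrow and clear cells share the epithelium, and smooth muscle and connective tissue surround it. In mice this segment matures only if luminal (lumicrine) factors from the testis reach it, a signal read by the receptor tyrosine kinase Ros1 and passed on through ERK to Ets transcription factors, and androgen is needed as well.

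The deposited values are FPKM, read fragments scaled for exon length and library size. A gene was given the sum of its first-exon values, or of its last-exon values where that sum was larger over the 9 libraries. The files hold no read counts, so sequencing depth is unknown and no detection limit can be given. Gene values summed to 265520, 258510 and 257795 in WT replicates 1, 2 and 3, and 14002, 13814 and 13723 genes were above 0. At least 1 FPKM in all 3 libraries was reached by 10733 genes, 10494 of them protein-coding. The libraries resembled each other closely, with Pearson's r of log2 values across genes, which are not independent replicates, of 0.955 to 0.959. The median SD of log2(FPKM + 1) over genes was 0.164 in WT, beside 0.171 in dKO and 0.206 in tKO. Genes without introns were nearly all missing from the files: 37 of 1344 such protein-coding genes had a value, against 14870 of 20684 with introns. The files also list some housekeeping genes at 0, among them Gapdh in all 3 WT libraries, so a 0 is not read here as absence.

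The targeted genes were read first. Yap1, the coactivator restrained by the Mst kinases, had 23.2, 25.2 and 26.9 FPKM in the WT libraries and 8.86, 8.68 and 8.33 in tKO, a log2 difference of 1.44 (limma, Benjamini-Hochberg adjusted p = 0.000237). Stk4, which encodes Mst1, had a WT mean of 9.83 ± 0.817 FPKM (SD, n = 3) and ranked 4647 among all genes. Stk3, which encodes Mst2, had 7.85 ± 0.928 FPKM and ranked 5536. The 6 knockout libraries had 7.15 to 9.83 FPKM of Stk4 and 6.62 to 8.31 of Stk3, and neither gene was called between WT and both knockouts (limma adjusted p of 0.536 and 0.636). These are first-exon values, and which exons were deleted is not given in the sources used here, so the tKO label was checked on Yap1 alone and the loss of Mst1 and Mst2 was not checked.

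All 4 marker genes given for this tissue were abundant. Gpx5 (ENSMUSG00000004344, chromosome 13, 21286429 to 21292731, GRCm38) encodes an epididymal glutathione peroxidase that protects sperm from peroxides, and ranked first with 17615, 16391 and 16865 FPKM. Lcn8 (ENSMUSG00000036449, chromosome 2, 25653120 to 25656217), a lipocalin that carries small lipophilic molecules, ranked 4 with 3675, 5470 and 4396 FPKM. Rnase10 (ENSMUSG00000021872, chromosome 14, 51007751 to 51010758) encodes a ribonuclease-like protein without catalytic activity that mouse sperm need for binding. It ranked 8 with 1996, 2426 and 1929 FPKM. Cst8 (ENSMUSG00000027442, chromosome 2, 148798785 to 148805595), a secreted member of the cystatin family of protease inhibitors, ranked 38 with 447, 393 and 697 FPKM.

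The sequences just before the start of these 4 genes are shown because they are the regulatory ends of the markers that define the tissue. They are RefSeq promoter windows on GRCm38.p6, given 5′ to 3′ on the strand of the gene and ending at the base before the RefSeq start or, where it lies further upstream, before the deposited first exon. Capitals mark matches on either strand to AGGAAG, an Ets core with flanking bases that reads CTTCCT on the other strand.
Gpx5, minus strand, chr13:21292732-21292936: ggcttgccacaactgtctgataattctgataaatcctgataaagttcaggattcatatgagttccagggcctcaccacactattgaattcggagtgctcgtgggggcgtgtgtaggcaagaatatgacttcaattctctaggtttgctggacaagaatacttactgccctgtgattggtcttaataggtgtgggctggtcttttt
Lcn8, plus strand, chr2:25652868-25653117: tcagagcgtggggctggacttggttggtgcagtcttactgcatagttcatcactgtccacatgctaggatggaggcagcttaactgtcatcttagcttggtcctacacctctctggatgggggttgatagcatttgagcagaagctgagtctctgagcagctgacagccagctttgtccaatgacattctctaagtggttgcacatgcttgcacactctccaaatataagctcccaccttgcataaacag
Rnase10, plus strand, chr14:51007679-51007928: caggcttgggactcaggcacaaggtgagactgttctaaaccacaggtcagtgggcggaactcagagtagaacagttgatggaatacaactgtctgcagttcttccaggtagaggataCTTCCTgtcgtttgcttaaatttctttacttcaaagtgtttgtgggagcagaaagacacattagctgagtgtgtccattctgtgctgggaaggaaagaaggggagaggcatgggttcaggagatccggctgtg
Cst8, plus strand, chr2:148798589-148798784: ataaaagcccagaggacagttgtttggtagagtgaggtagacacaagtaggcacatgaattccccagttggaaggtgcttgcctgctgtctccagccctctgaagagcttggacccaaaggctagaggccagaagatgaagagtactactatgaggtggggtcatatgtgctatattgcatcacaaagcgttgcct
Only the Rnase10 window, of 250 bases, held an Ets match, and it held 1. In 32536 RefSeq windows of that length, 29.6% held an Ets match. The TATA box TATAAA, which reads TTTATA on the other strand, was found on neither strand of any of the 4 windows. It occurred in 12.3% of all windows of 250 bases, 10.2% of those of 205 bases and 9.73% of those of 196 bases. In the 205 bases shown for Gpx5 and the 196 shown for Cst8, the Ets background was 25.3% and 24.3%. A match is letters in a window, not a bound site, and a window without one says nothing of the factor. The deposited first exon began 45 bases upstream of the RefSeq start in Gpx5, 54 upstream in Cst8, 2 downstream in Lcn8 and exactly at it in Rnase10. Those 45 and 54 bases were not searched, whereas all background windows ended at the base before the RefSeq start. Rnase10 has 2 RefSeq starts, and the one shown carried 99.8% of its WT first-exon value.

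A small set of genes dominated the WT transcriptome. Gpx5 alone held 6.51% ± 0.150 of the summed gene values (SD, n = 3), the 10 highest genes 17.5% ± 0.583, the 25 highest 23.2% ± 0.774 and the 100 highest 34.1% ± 0.617. The 436 highest genes held 50% of the sum and the 5287 highest 90%. In all, 16 genes had a WT mean of at least 1000 FPKM, 309 at least 100 and 4575 at least 10. The same 10 genes held 13.05% to 16.28% in the 6 knockout libraries, and Gpx5 4.33% to 5.64%, so WT lay higher in both shares. These genes were chosen by their WT level, and no test is given.

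Of the 25 highest genes, 12 belong to the families of secreted and sperm-coating proteins listed below. Spag11b (chromosome 8, 19140759 to 19143010) and Defb20 (chromosome 2, 152477063 to 152479934), small cationic antimicrobial peptides of the beta-defensin family, ranked 2 and 3. Spag11b had 4504, 6882 and 6069 FPKM, and Defb20 5664, 4116 and 4680. Members of the 25 outside these listed families included Mfge8, a secreted protein described below. They also included Eef1a1, the elongation factor that brings tRNAs to the ribosome, with 2615, 2859 and 2264 FPKM. Glul, which makes glutamine, had 1439, 1102 and 1237 FPKM, and Slc38a5, a carrier of glutamine and other neutral amino acids (chromosome X, 8271133 to 8280179), 1940, 925 and 1035. Slc38a5 stood higher in WT replicate 1 than in the other two libraries. Tmsb4x, which sequesters actin monomers, had 957, 1028 and 1201 FPKM. Ap1s2, a subunit of a clathrin adaptor, had a mean of 916 ± 70.0 FPKM, and Itm2b, which encodes a small membrane protein, ran at 513, 438 and 1768 with WT replicate 3 far above the others.

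**Figure D1:**
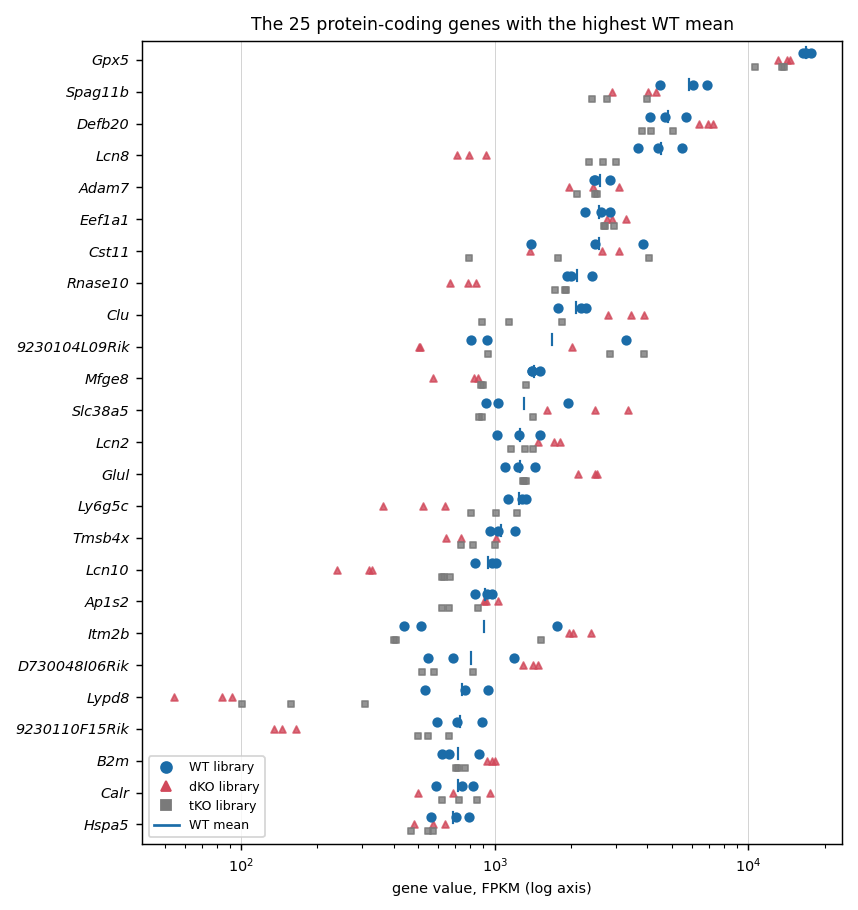
The 25 protein-coding genes with the highest WT mean, ordered by rank, with the value of each of the 9 libraries in FPKM on a log axis; blue circles are WT libraries, red triangles dKO, grey squares tKO, and the blue bar is the WT mean. Gpx5 stands apart at 16391 to 17615 FPKM in WT, and Itm2b and 9230104L09Rik show the widest WT spread.

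The secretory families were then taken in turn. Together, the listed families of secreted proteins, leaving out the chaperones of the secretory pathway, held 22.1%, 21.7% and 21.9% of the summed values in WT replicates 1, 2 and 3. The highest member gave 97.8% of the summed level of the ribonuclease A family, 89.7% of the antioxidant enzymes, 72.6% of the cystatins and 71.0% of the CAP proteins. In the other 8 families it gave 16.8% to 62.6%. Closely similar paralogs, such as the defensins, Spag11b and its copies, and the Ly6 genes, may share reads in ways that the authors' processing could split.

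Among 52 annotated glutathione peroxidases and other antioxidant enzymes, 49 had a value and 40 reached 1 FPKM in all WT libraries. Gpx5 made up 89.7% of the family's sum. The cytosolic glutathione transferases Gstm2, with 372, 371 and 164 FPKM, Gstm7, with 216, 179 and 182, and Gstm1, with 149, 146 and 146, followed. The peroxiredoxins Prdx1 and Prdx6, which reduce peroxides, had means of 150 ± 9.01 and 125 ± 26.2 FPKM. Gpx3, the extracellular peroxidase of plasma, was lower at 99.7, 75.8 and 80.9 FPKM, below all 6 knockout libraries (112 to 214).

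Of 44 beta-defensin genes, 24 had a value and 13 reached 1 FPKM throughout. After Spag11b, at 49.4% of the sum, and Defb20 came Defb42 with 600, 469 and 600 FPKM and Defb47 with 313, 446 and 257. Defb21, Defb12, Defb1 and Defb30 had means of 79.3 ± 20.6, 77.3 ± 5.59, 37.1 ± 5.63 and 13.2 ± 2.27 FPKM.

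The lipocalins, carriers of hydrophobic ligands, were present almost as a whole family: 12 of 15 had a value and 11 reached 1 FPKM throughout, 8 of them with a mean of at least 100. Lcn8 made up 55.9% of the sum. Lcn2, which binds bacterial iron carriers, had 1512, 1023 and 1252 FPKM, Lcn10 836, 1015 and 975, and Lcn6 612, 635 and 637. Lcn12 and Lcn5 had means of 111 ± 17.6 and 104 ± 13.8 FPKM. Lcn9 and Ptgds, the prostaglandin D synthase that is also a lipocalin, varied among the WT libraries, with 696, 120 and 296 FPKM for Lcn9 and 166, 85.7 and 75.4 for Ptgds; both were highest in WT replicate 1. The family summed to 7747, 8617 and 7868 FPKM in WT, above the 6 knockout libraries (3625 to 3690 in dKO, 5420 to 6102 in tKO).

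Of 10 cystatins, 9 had a value and 4 reached 1 FPKM throughout. Cst11 (chromosome 2, 148768609 to 148771497) was the highest with 3842, 1395 and 2479 FPKM by last exons, so its libraries differed more than those of Lcn8 or Gpx5. By first exons Cst11 had 0, 859 and 2474 FPKM. Cst3, the general extracellular inhibitor of cysteine proteases, had 342, 349 and 305 FPKM and Cst12 136, 121 and 111. Cst8, Cst11 and Cst12 lie in 1 cluster on chromosome 2.

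Of 20 genes of the ribonuclease A family, 7 had a value, and Rnase10 made up 97.8% of their sum. Rnase4 was next, with 46.1, 38.2 and 39.1 FPKM, and Rnase11 and Rnase13 were listed at 0 in all WT libraries. The family of CAP proteins, which includes the sperm-coating Crisp proteins, behaved differently across libraries. Crisp1, which binds sperm in later segments, had 351, 83.5 and 67.6 FPKM, with WT replicate 1 above the other two. Crisp4 was even, with 39.0, 46.3 and 40.8 FPKM.

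The proteases were led by Adam7 (chromosome 14, 68497336 to 68533741), a membrane protein of the metalloprotease family that passes to sperm, with 2863, 2482 and 2457 FPKM. It made up 62.6% of a sum over 80 of 150 annotated genes with a value, 31 of which reached 1 FPKM throughout. Ovch2, a luminal protease needed in mice for sperm maturation, had 140, 156 and 379 FPKM. The lysosomal cathepsins were steadier: Ctsl had 203, 220 and 217 FPKM, Ctsd 106, 103 and 108, and Ctsh 89.98, 148 and 115.

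Protease inhibitors other than cystatins were numerous, with 23 of 42 annotated Kazal, Kunitz and WAP genes at 1 FPKM or more throughout. Wfdc10 was the highest with 669, 481 and 471 FPKM, then Spint2, a membrane-bound Kunitz inhibitor, with 342, 264 and 266, and Spink8 with 330, 247 and 208. Spink12 had 262, 154 and 148 FPKM, and Eppin, an inhibitor that coats sperm, 150, 138 and 164. The serpins were much lower: 24 of 61 had a value, the sum was 229 to 257 FPKM per library, and Serping1, an inhibitor of complement, led with 55.8, 54.9 and 40.6 FPKM.

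Among sperm-coating and luminal proteins, Clu, an extracellular chaperone, had 2300, 1781 and 2192 FPKM. Ly6g5c had 1134, 1328 and 1283 FPKM and its neighbour Ly6g5b 433, 519 and 476. Lypd8 (chromosome 11, 58379043 to 58390728), whose protein binds bacterial flagella in the gut, had 531, 763 and 944 FPKM, and Npc2, a luminal cholesterol carrier, 148, 80.4 and 118. Mfge8, a milk fat globule protein that binds phosphatidylserine and sperm, had 1403, 1397 and 1505 FPKM. It was not on the lists of secreted families, so their shares of the summed values leave it out. All 22 glycosidases had a value and 21 reached 1 FPKM throughout, with Glb1l2, a relative of beta-galactosidase, at 290, 340 and 283 FPKM against a mean of 37.2 ± 2.23 for the second highest, the lysosomal Hexa. The lipases were low: of 60 annotated, 37 had a value, 6 had a mean of at least 10 FPKM and none reached 100. Ces5a, a secreted carboxylesterase of the epididymis, led them with 56.4, 40.7 and 47.04 FPKM, followed by Lipi with 46.8, 41.7 and 45.98 and Pla2g5 with 40.9, 49.4 and 34.7.

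Genes of the secretory pathway itself were high in every library. Of 46 chaperone and translocation genes of the endoplasmic reticulum, 45 had a value, 43 reached 1 FPKM throughout and 11 had a mean of at least 100. Calr, the lectin chaperone calreticulin, had 742, 586 and 819 FPKM, Hspa5, the main chaperone of the compartment, 560, 792 and 705, and Hsp90b1 544, 758 and 713. The disulfide isomerases Pdia3, Pdia6, P4hb and Pdia4 had means of 518 ± 31.7, 379 ± 32.0, 298 ± 13.8 and 240 ± 4.57 FPKM. The list summed to 5373, 5733 and 5507 FPKM, a spread that overlapped both knockouts (4760 to 5780 in dKO and 4730 to 5437 in tKO).

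Among listed transport genes, the amino acid carrier Slc38a5 had the highest WT mean. Of 191 annotated Slc carriers of organic solutes, 137 had a value and 76 reached 1 FPKM throughout, while 22 were listed at 0 in all WT libraries. Slc38a5 made up 54.7% of their sum. Slc3a2, the heavy chain that brings several amino acid exchangers to the membrane, had 203, 228 and 209 FPKM. Slc1a1, a glutamate carrier, had 161, 156 and 151, and no other member had a mean of at least 100. Slc38a10, Slc16a10 (an aromatic amino acid carrier), Slc27a1 (fatty acid uptake), Slc7a8 and Slc7a1 (amino acid exchange and uptake) had means of 48.0 ± 10.6, 44.9 ± 6.65, 36.8 ± 8.19, 33.8 ± 5.01 and 29.2 ± 4.25 FPKM.

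All 23 subunits of the vacuolar proton pump with a value, of 25 annotated, reached 1 FPKM throughout. The pump acidifies organelles in every cell and the lumen from narrow and clear cells. Atp6v0e had 134.1, 123.1 and 126 FPKM, Atp6v1g1 166, 81.9 and 109, and Atp6v0c 107, 115 and 122. Among sodium pump genes, the beta subunit Atp1b1 had 85.9, 81.9 and 61.3 FPKM. Other P-type pumps were led by the calcium pump of the endoplasmic reticulum, Atp2a2, at 85.7, 53.2 and 87.1 FPKM, and the plasma membrane calcium pumps Atp2b4 and Atp2b1 had means of 62.0 ± 2.76 and 46.0 ± 0.545.

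Among channels, 42 of 174 annotated genes reached 1 FPKM throughout. The potassium channel Kcnk1 stood alone with 171, 92.6 and 160 FPKM, while Scnn1a, a subunit of the epithelial sodium channel, had 27.1, 20.7 and 23.6. Of acid, base and chloride transporters, 43 of 85 reached 1 FPKM throughout and none had a mean of at least 100. Car2, a cytosolic carbonic anhydrase, had 21.5, 31.3 and 26.5 FPKM, Clcn5, an endosomal chloride exchanger, 24.4, 29.5 and 29.5, and Slc4a4, a sodium bicarbonate carrier, 18.2, 18.7 and 20.01. Cftr, the chloride channel of cystic fibrosis, was picked after its values were seen and had 5.64, 6.57 and 6.35 FPKM.

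Of 12 aquaporins, 7 had a value and 3 reached 1 FPKM throughout. The water channel Aqp1 had 19.8, 19.6 and 20.1 FPKM and Aqp9, which also passes small neutral solutes, 9.38, 8.94 and 5.37. Aqp2 and Aqp4 were listed at 0 in all WT libraries. Tight junction genes were led by Cldn2, a claudin that forms pores for cations and water, with 248, 336 and 338 FPKM, or 55.0% of the sum of 18 genes. Cldn1, Cldn7 and Cldn10 followed with means of 35.7 ± 1.57, 34.4 ± 5.66 and 29.8 ± 1.64 FPKM.

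Of metal carriers, 22 of 32 reached 1 FPKM throughout, led by the zinc carrier Slc39a7 with 50.2, 57.2 and 43.2 FPKM and the copper importer Slc31a1 with 48.3, 49.6 and 46.9. Among ABC transporters, 24 of 50 did so. Abcd3, of peroxisomes, had 31.1, 30.2 and 31.1 FPKM, and Abca1, which exports cholesterol, 24.8, 19.7 and 22.4.

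Of the listed transcription factors, Hoxb6 and Etv5 were the only 2 with a WT mean of at least 100 FPKM. Hoxb6 (chromosome 11, 96292476 to 96301569), a homeobox gene of body axis patterning, had 105, 118 and 100 FPKM, and Etv5 (chromosome 16, 22381309 to 22439719), an Ets factor downstream of ERK, 104, 102 and 101. Atf4, a factor of the amino acid and stress response, had 107, 96.2 and 97.0. Of 39 Hox genes, 26 had a value and 18 reached 1 FPKM throughout. Hoxb7 had 89.5, 109 and 77.8 FPKM and Hoxd8 79.6, 68.7 and 87.0, while Hoxb9, Hoxd4 and Hoxd9 had means of 41.8 ± 10.6, 39.2 ± 3.18 and 22.7 ± 9.92. Hoxb8 was uneven at 1.79, 1.10 and 58.8 FPKM, high only in WT replicate 3.

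The other homeobox and paired factors included regulators of the urogenital duct. Emx2 had 48.4, 66.5 and 45.3 FPKM, and Pax8 44.5, 57.9 and 46.0. Hopx, a small homeodomain protein that does not bind DNA, had 57.4, 49.8 and 55.9. Of 114 annotated genes of this group 57 had a value, 25 reached 1 FPKM throughout and 9 were listed at 0.

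Ets factors were present as 17 of 26 at 1 FPKM throughout. Elf3, an epithelial member, had 50.7, 44.98 and 54.6 FPKM, and Etv4 and Etv1, which with Etv5 form the subfamily induced by ERK, had 26.8, 33.0 and 23.8 and 14.9, 18.8 and 16.3. Ehf, also epithelial, had 16.9, 11.4 and 47.1 FPKM. Ehf, like Hoxb8, was high in WT replicate 3, whereas Etv5 and Elf3 were even.

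Among nuclear receptors, 25 of 47 reached 1 FPKM throughout. Nr2f6 and Nr2f2, orphan receptors of the COUP family, had means of 29.2 ± 2.68 and 24.9 ± 2.65 FPKM, and the estrogen receptor Esr1 had 18.9, 17.8 and 17.2. Sox9, an epithelial and Sertoli cell factor, had 26.8, 29.02 and 28.98 FPKM, and Tbx2 27.6, 28.9 and 18.8. Runx2 and Runx1 had means of 14.9 ± 3.56 and 12.6 ± 2.18 FPKM.

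Of the basic leucine zipper factors 24 of 45 reached 1 FPKM throughout. Xbp1, the factor of secretory cells that expands the endoplasmic reticulum, had 48.0, 52.6 and 19.2 FPKM, and Creb3l2, which acts on secretory transport, 49.2, 44.7 and 45.8. The helix-loop-helix factors Bhlhe40, a repressor of the clock, and Srebf2, which drives cholesterol synthesis, had means of 57.6 ± 6.52 and 40.0 ± 1.56 FPKM. Srebf1, which drives fatty acid synthesis, had 52.4, 45.8 and 4.01, low in WT replicate 3. Of signal-dependent factors, Egr2, an immediate early gene, led with 78.7, 82.7 and 96.2 FPKM. Foxo3 had the highest forkhead mean at 17.3 ± 0.167 FPKM, and Klf3 the highest among Klf and Sp factors at 25.7 ± 2.43.

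Receptors were led by adhesion G protein-coupled receptors. Adgrg2 (chromosome X, 160390690 to 160498070), which in mice is needed for fluid reabsorption in the efferent ducts, had 239, 263 and 306 FPKM, and Adgrg1 94.5, 163 and 170. Oxtr, the oxytocin receptor, had 24.01, 32.6 and 26.9 FPKM. Of 239 annotated genes on the list, 118 had a value, 49 reached 1 FPKM throughout and 11 had a mean of at least 10. Smo, the transducer of hedgehog signals, and the orphan receptor Gpr45 had means of 23.2 ± 0.362 and 22.9 ± 2.45 FPKM.

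Receptor tyrosine kinases reached 1 FPKM throughout in 34 of 55 cases. Pdgfra, which marks fibroblasts, was the highest with 53.7, 56.6 and 54.1 FPKM, and Ros1 (chromosome 10, 52045721 to 52195244) was next with 37.9, 45.7 and 29.4. Igf1r, the receptor of insulin-like growth factors, had 22.4, 25.7 and 21.6 FPKM, and Erbb3 20.7, 16.5 and 21.2. Among endocytic and sorting receptors and their partners, Sort1, which sorts proteins to lysosomes, had 149, 116 and 118 FPKM, the mannose 6-phosphate receptor M6pr 56.7, 60.6 and 57.6, and Scarb1, which takes up cholesterol from lipoproteins, 45.1, 43.3 and 46.5. Cubn and Amn, which together form an endocytic receptor of the kidney, were listed at 0. Lrp2, the large endocytic receptor of absorptive epithelia, was picked after its values were seen and had 4.80, 3.45 and 3.18 FPKM.

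Of cytokine and hormone receptors 29 of 68 reached 1 FPKM throughout, led by the interferon gamma receptor chains Ifngr2, with 46.3, 56.2 and 42.9 FPKM, and Ifngr1, with 31.0, 32.4 and 30.0. The integrin Itgb1, the common beta chain of adhesion receptors, had 124, 113 and 109 FPKM, 54.8% of the sum of 21 integrin genes. Tgfbr1 and Bmpr2 led the TGF-beta and BMP receptors with means of 22.4 ± 2.97 and 15.6 ± 0.371 FPKM, and Notch1 and Notch2 their family with 15.03 ± 3.07 and 12.2 ± 0.464.

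**Figure D2:**
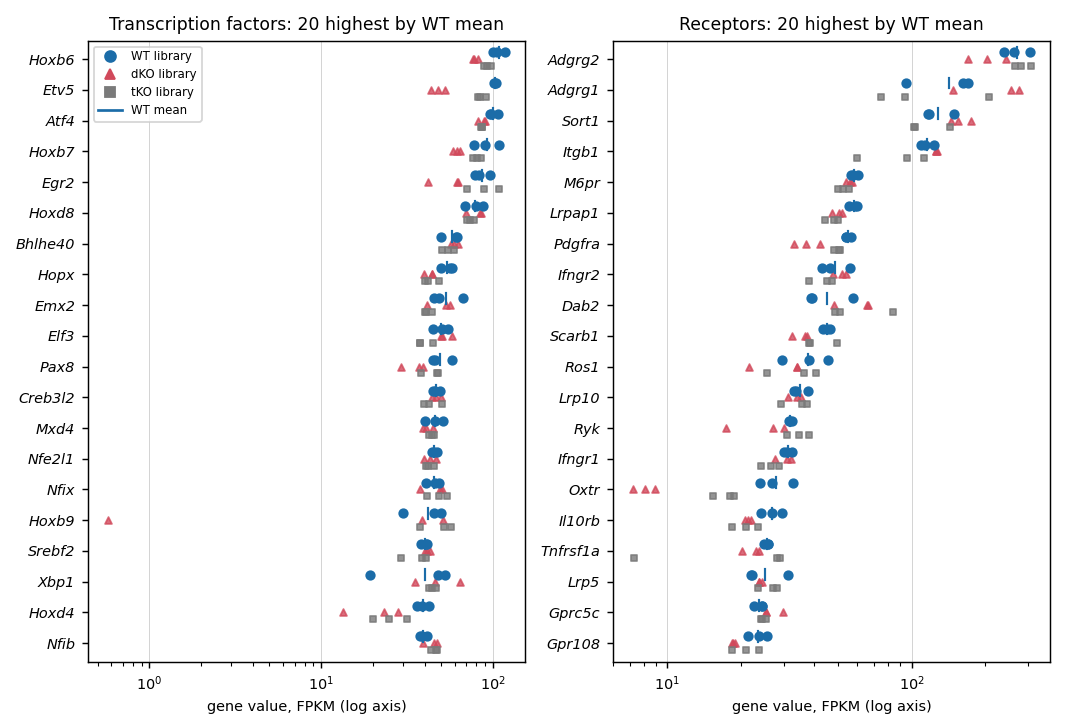
The 20 listed transcription factors (left) and the 20 listed receptors and receptor partners (right) with the highest WT mean among those at 1 FPKM or more in all WT libraries; each point is a library in FPKM on a log axis, with symbols as in the plot of the 25 highest genes. Etv5 sits at 101 to 104 FPKM in WT, above all 6 knockout libraries, and Oxtr at 24.01 to 32.6 FPKM, likewise above all 6.

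Genes of the lumicrine pathway and of androgen action were followed as lists. Of 45 lumicrine, Ros1 and ERK genes, 32 had a value and 21 reached 1 FPKM throughout. Dusp6, a phosphatase induced by ERK, had 47.9, 43.7 and 42.7 FPKM, and Spred2 and Spry1, feedback inhibitors of the pathway, had 24.4, 23.4 and 23.3 and 22.2, 12.1 and 23.6. Of 29 androgen genes, 20 had a value. Srd5a2, which converts testosterone to dihydrotestosterone, had 107, 190 and 107 FPKM, and the co-chaperones Fkbp5 and Fkbp4 had means of 118 ± 9.31 and 112 ± 6.47.

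Marker lists of cell types and segments were used to check what the WT libraries held. The 12 markers of initial segment principal cells summed to 29270, 27955 and 28685 FPKM, 10.8% to 11.1% of all values, of which Gpx5 gave 59.2%. Of these markers 11 reached 1 FPKM throughout, and Rnase9, with 2.82, 6.97 and 0 FPKM, did not. The 12 later-segment markers with a value summed to 7895, 6361 and 6834 FPKM, 68.6% of it from Defb20. Initial segment markers thus had the larger sum, while Defb20, listed for later segments, ranked 3 among all genes, above the initial segment markers Lcn8, Cst11 and Rnase10. Smooth muscle markers summed to 809, 1228 and 1129 FPKM, with Actg2 at 281, 666 and 498 and Acta2 at 325, 348 and 413. Fibroblast markers summed to 563, 547 and 689 FPKM, led by Dcn at 185, 186 and 205. Col1a2 ran at 0.0355, 0.0380 and 128 FPKM by first exons beside Col1a1 at 131, 123 and 135, and these are the 2 chains of the same collagen. By last exons Col1a2 had 139, 142 and 76.3 FPKM. The fibroblast sums use the first-exon values of Col1a2, so the higher sum in WT replicate 3 depends on the exon class used.

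Markers of the other epithelial cells were much lower. Basal cell markers summed to 132, 149 and 153 FPKM, with the keratins Krt5 at 56.6, 44.8 and 57.1 and Krt14 at 22.3, 29.2 and 27.9. Narrow and clear cell markers summed to 84.8, 131 and 146 FPKM. Rhcg, an ammonia channel of these cells, differed most between libraries with 13.9, 50.01 and 66.2, while Atp6v0d2, a subunit of their proton pump, was even at 19.5, 18.3 and 21.2. Macrophage markers summed to 55.5 to 67.6 FPKM, endothelial markers to 43.3 to 50.9, red blood cell markers to 121 to 160 and ciliated efferent duct markers to 49.2 to 59.4. Foxj1, the master factor of motile cilia, had 12.4, 13.5 and 12.4. Germ cell markers reached at most 1.36 FPKM in sum and lymphocyte markers at most 1.51. Of the adipocyte list, Adipoq, Cidec and Lep were listed at 0 in all WT libraries. Of the Leydig and Sertoli list, Cyp17a1 and Amh were at 0, and Sox9, which epithelium also expresses, gave 88.3% of the sum.

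**Figure D3:**
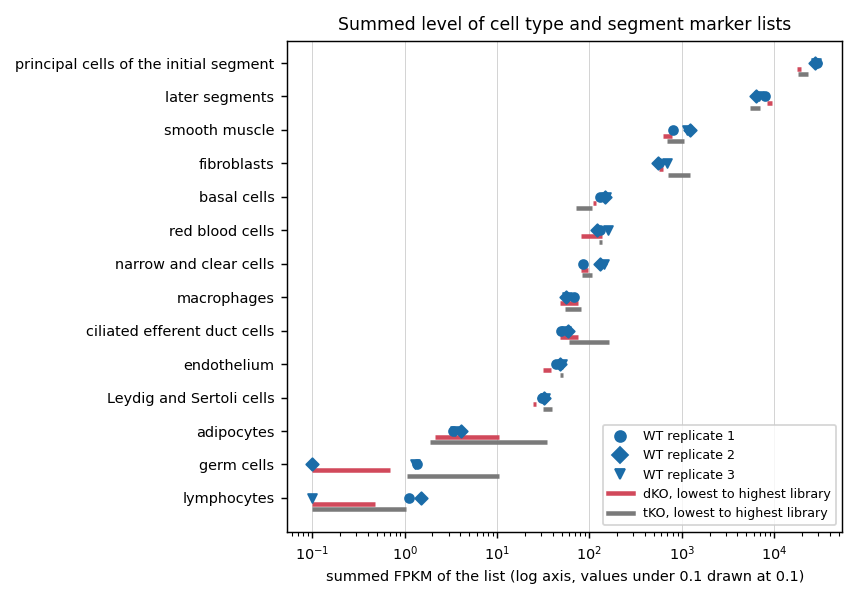
Summed FPKM of each cell type or segment marker list on a log axis; blue symbols are the 3 WT replicates, and red and grey bars run from the lowest to the highest dKO and tKO library. Initial segment markers summed to 27955 to 29270 FPKM in WT, above the 17510 to 19677 of dKO and the 18002 to 23469 of tKO, and germ cell and lymphocyte markers stayed under 2 FPKM in WT.

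Some genes differed widely among the WT libraries. Of 740 genes with a WT mean of at least 50 FPKM, 41 had a highest library more than 2 times the lowest, and the library farthest from the median of the 3 was WT replicate 1 in 18, replicate 2 in 9 and replicate 3 in 14. WT replicate 1 was higher in Crisp1, Lcn9, Cst11, Slc38a5 and 9230104L09Rik (3299, 806 and 929 FPKM) and lower in Adam28 and Actg2. For Cst11 this held by last exons only, since WT replicate 1 was the lowest by first exons. In WT, Crisp1 had last-exon values only and Lcn9 first-exon values only.

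Some of this spread sat in the deposited values of neighbouring genes. Adam28 (chromosome 14, 68606027 to 68655842), a metalloprotease gene, had 151, 667 and 559 FPKM by last exons but 370, 667 and 593 by first exons. Its neighbour Adamdec1 (chromosome 14, 68563380 to 68582095), also of the ADAM family, had 220 FPKM in WT replicate 1 by a last exon and 0 and 1.07 in the others, with no first-exon value in any WT library. Other genes of general function showed the same kind of gap: Vcp, an ATPase that extracts proteins from membranes, was listed at 0 in WT replicate 1 and had 55.1 and 107 FPKM in the others. Chmp4b, a membrane remodelling factor, had 13.2, 73.4 and 75.0 FPKM, Rpl23a, a ribosomal protein, 207, 56.3 and 195, and Crip2 18.9, 36.6 and 153. In all, 12 genes were listed at 0 in 1 or 2 WT libraries and at 20 FPKM or more in another. Whether these gaps come from the assignment of reads to transcripts was not tested.

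**Figure D4:**
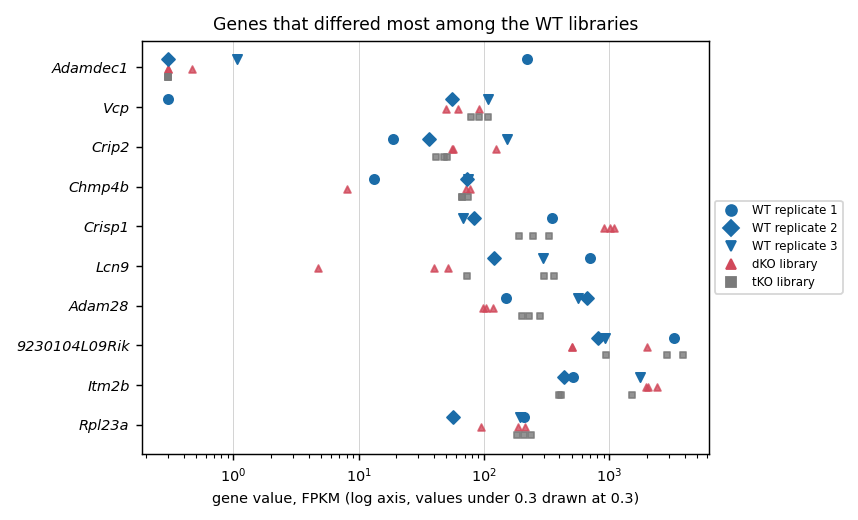
The 10 genes with the largest SD of log2(FPKM + 1) over the WT libraries among genes with a WT mean of at least 50 FPKM; blue symbols are the 3 WT replicates, red triangles dKO and grey squares tKO libraries, on a log axis with values under 0.3 drawn at 0.3. Adamdec1 is high only in WT replicate 1, at 220 FPKM, and Vcp is listed at 0 only there.

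Against the knockouts as background, few genes were called, and with 3 libraries a group an uncalled gene may still differ. In limma's fit of log2(FPKM + 1) to all 9 libraries, 166 of 12078 tested genes, or 1.37%, differed between WT and the mean of both knockouts at a Benjamini-Hochberg adjusted p under 0.05, 115 higher in WT (0.952%) and 51 lower (0.422%). Against dKO alone 457 genes (3.78%) were called, 281 higher in WT (2.33%) and 176 lower (1.46%), and against tKO alone 20 (0.166%), 10 higher (0.0828%) and 10 lower (0.0828%). These comparisons share the WT libraries. At an unadjusted p under 0.05 there were 1980, 2236 and 1597 genes. The median log2 difference of all tested genes was -0.04 against both. In 440 genes (3.64%) all 3 WT libraries lay above all 6 knockout libraries, and in 489 (4.05%) below. The count of 166 was 154 without WT replicate 1, but with 80 higher and 74 lower. It was 32 without WT replicate 2 and 47 without WT replicate 3, 93, 103 and 74 without dKO replicates 1, 2 and 3, and 237, 69 and 99 without tKO replicates 1, 2 and 3. Against dKO the count was 106 and 124 without WT replicates 2 and 3 and 188, 165 and 132 without dKO replicates 1, 2 and 3. Against tKO it was 154 without tKO replicate 1, 8 without tKO replicate 2, 13, 6 and 10 without WT replicates 1, 2 and 3, and 11 and 13 without dKO replicates 1 and 3.

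The largest differences were taken among called genes whose 3 WT libraries lay all above or all below the 6 knockout libraries, leaving out predicted genes, so groups that do not overlap are part of the choice. Among the 10 largest of these with WT higher were Lypd8, the secreted phospholipase Pla2g5, the cystatin Cst12, the lipases Lipf and Lipk, and Agr2. Lypd8 had 54.4 to 307 FPKM in the knockouts against 531 to 944 in WT, a log2 difference of 2.67 ± 0.34 (SE; limma adjusted p = 0.00882). Pla2g5 (chromosome 4, 138799244 to 138863482), had 34.7 to 49.4 FPKM in WT and 4.78 to 10.9 in the knockouts (2.45 ± 0.19, limma adjusted p = 0.00198). Cst12 had 111 to 136 against 13.4 to 55.4 (2.30 ± 0.22, limma adjusted p = 0.00464), and Lipf, a gastric-type lipase, 9.37 to 14.2 against 0.398 to 6.14 (2.12 ± 0.20, limma adjusted p = 0.0041). Agr2, a disulfide isomerase of secretory cells, had 79.2, 90.6 and 91.6 FPKM in WT and 13.7 to 47.5 in the knockouts (1.91 ± 0.35, limma adjusted p = 0.0404). Bglap2, Lipk, Bricd5, Tnfaip2 and Krt15 made up the 10 largest, with differences of 2.24, 2.02, 1.89, 1.77 and 1.66. Krt15 marks basal cells, whose 7 markers with a value summed to 132 to 153 FPKM in WT. The dKO libraries summed to 109 to 119 and the tKO libraries to 71.5 to 107. That sum takes in Krt15 itself (12.6 to 32.4 FPKM in WT, 3.77 to 10.05 in the knockouts), which was chosen for groups that do not overlap. Among the other markers, WT lay above all 6 knockout libraries in Col17a1, while Krt5, Krt14, Trp63, Krt17 and Itga6 overlapped them. The part of these cells in the result was not tested.

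Among the 10 largest chosen in the same way with WT lower were Sumo2, the growth factor binding protein Igfbp2 and the metallothionein Mt3. Sumo2, which encodes a protein modifier, was listed at 0 in all 3 WT libraries and had 22.4 to 46.7 FPKM in the 6 knockout libraries, the only gene at 0 in WT with at least 5 FPKM in all of them. Whether its transcripts are missing or were not assembled in WT was not tested. Igfbp2 had 14.7, 11.97 and 11.5 FPKM in WT and 30.7 to 140 in the knockouts (-2.16 ± 0.40, limma adjusted p = 0.0429). Mt3 had 14.3, 26.8 and 13.4 against 26.9 to 106 (-1.73 ± 0.30, limma adjusted p = 0.037). Fxyd2, a modulator of the sodium pump, had 2.87, 2.97 and 1.78 against 4.93 to 11.6 (-1.19 ± 0.15, limma adjusted p = 0.00978). Npy6r, Bicc1, Cyp2e1, Prc1, Stmn1 and P2rx7 completed the 10 lowest, at -1.63, -1.26, -1.17, -0.95, -0.92 and -0.91.

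Of these 20 genes, only Pla2g5, Cst12, Sumo2 and Fxyd2 were also called by limma against tKO alone. There the call of Cst12 (limma adjusted p = 0.0477) was lost in 7 of 9 fits that left out 1 library and in 5 of 8 other settings. That of Fxyd2 was lost without WT replicate 2 or tKO replicate 2, and that of Pla2g5 without WT replicate 2. A replicate block also ended the calls of Fxyd2 and Pla2g5. Only Sumo2 was called against tKO alone in all these fits. In the comparison with both knockouts, Pla2g5, Cst12, Lipf, Sumo2 and Fxyd2 were called in all 9 fits that left out 1 library. Bricd5 and Lipk lost the call in 1 of these fits, without WT replicate 2 (limma adjusted p of 0.0683 and 0.0616), and Lypd8 and Bicc1 without WT replicate 2 or 3 (at most 0.0616 and 0.101). The calls of the other 11 were lost in 3 to 8 of the 9 fits, and each of the 9 libraries ended at least 1 of them, with an adjusted p of at most 0.21. Other processing, a replicate block aside, ended 12 of the 20 calls. Without a filter on low values the calls of Agr2, Bglap2, Cyp2e1, Igfbp2, Krt15, Mt3, Npy6r, P2rx7, Prc1 and Tnfaip2 were lost (limma adjusted p of at most 0.0852). By first exons only 6 were lost, with Bricd5 at 0.367 and Krt15 at 0.223, and with no variance trend 5 (at most 0.0568). A pseudocount of 0.1 ended the calls of Bglap2, Krt15, Lipk and Tnfaip2 (at most 0.141), and last exons only and median-ratio scaling that of Krt15.

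The fixed groups were read against that background. Of all 12078 tested genes 0.952% were called higher in WT than in the mean of both knockouts and 0.422% lower. At an unadjusted p under 0.05 there were 1980. Of 12 tested initial segment markers 5 were higher in WT than in the mean of both knockouts and 0 lower. Their median difference was 1.138 beside -0.04 over all genes. Compared with dKO alone 5 were higher (median 1.656), beside 2.33% of all tested genes. Compared with tKO alone 1 was higher, Cst12 (median of the list 0.484), beside 0.0828%. That call was lost in 7 of the 9 fits that left out 1 library. The list was set with earlier results of these data known, so its direction is no independent evidence. Lcn8 (1.60 ± 0.16, limma adjusted p = 0.00464) and Rnase10 (0.83 ± 0.13, limma adjusted p = 0.0219) were among the 5 called against both knockouts, with Lypd8, Cst8 and Cst12. Lcn8, Lypd8, Rnase10 and Cst8 were not called against tKO alone (limma adjusted p of 0.176, 0.09, 0.626 and 0.692). The call of Rnase10 was lost without WT replicate 2 or 3, dKO replicate 3 or tKO replicate 2 (limma adjusted p of at most 0.115), and without a filter on low values (limma adjusted p = 0.116). Cst8 (1.66 ± 0.31, limma adjusted p = 0.0442) overlapped tKO, where it had 258 to 531 FPKM, and its call was lost in 7 of the 9 fits that left out 1 library, without a filter, by first exons only and with no variance trend (limma adjusted p of at most 0.0768 in these 3). Gpx5 was not called (0.35 ± 0.19, limma adjusted p = 0.394), though its 3 WT libraries lay above all 6 others. Of 12 tested later-segment markers 2 were higher in WT than in the mean of both knockouts, Lcn10 and Crisp4, and 0 lower (median 0.181). Compared with dKO alone 2 of them were higher and 1, Crisp1, lower (median 0.119), and compared with tKO alone 0 were called. Of 11 tested lipocalins 2 were higher, Lcn8 and Lcn10 (median 0.37), of 26 lipases 4 were higher (median 0.02), and of 14 beta-defensins and 42 antioxidant genes 0 were called by limma either way (medians 0.02 and 0.04), with 4 and 8 at an unadjusted p under 0.05. In the comparison with tKO alone 0 of the lipocalins and 2 of the lipases were called by limma.

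Transport and regulatory genes were mostly uncalled between WT and the mean of both knockouts, like tested genes in general. Of all 12078 tested genes 0.952% were called higher in WT and 0.422% lower, so lists with 0 calls lay near the share of all genes. Of 88 tested organic solute carriers 3 were higher in WT, among them Slc1a1 with 151 to 161 FPKM against 74.8 to 147 (0.61, limma adjusted p = 0.0111). Of 23 proton pump subunits, 16 tight junction genes, 23 Hox genes, 27 nuclear receptors, 27 leucine zipper factors and 38 receptor tyrosine kinases, 0 were called by limma either way. At an unadjusted p under 0.05 those lists held 5, 3, 5, 7, 5 and 8 genes, beside 1980 of all 12078. Of 19 Ets factors 2 were higher, Etv5 with 101 to 104 FPKM against 43.5 to 90.4 (0.67, limma adjusted p = 0.00739) and Etv4, whose libraries overlapped tKO, with 23.8 to 33.0 against 7.19 to 30.5 (0.83, limma adjusted p = 0.0213). Of 59 G protein-coupled receptors 4 were higher and 1 lower, among them Oxtr with 24.01 to 32.6 FPKM against 7.22 to 18.7 (1.15, limma adjusted p = 0.00464). Car2 of narrow and clear cells was higher at 21.5 to 31.3 FPKM against 6.51 to 20.6 (1.04, limma adjusted p = 0.00882), 1 of 7 tested markers of these cells. The summed markers of these cells spanned 84.8 to 146 FPKM across the WT libraries; the dKO libraries ran from 82.0 to 97.1, the tKO libraries from 82.8 to 106, and their part in the result was not tested. Oxtr was called in all 9 fits that left out 1 library. Etv5 lost its call without WT replicate 2 (limma adjusted p = 0.0513), Slc1a1 and Car2 without WT replicate 2 or 3 (at most 0.0701 and 0.0516), and Etv4 without WT replicate 2, dKO replicate 3 or tKO replicate 2 (at most 0.101). Compared with tKO alone, limma called 0 of the tested organic solute carriers, Ets factors, G protein-coupled receptors and narrow and clear cell markers. Etv5, Etv4 and Car2 differed by 1.08, 1.64 and 1.66 from dKO alone (limma adjusted p of at most 0.000938). From tKO alone these 3 genes differed by 0.26, 0.018 and 0.42 (limma adjusted p of 0.304, 0.975 and 0.307).

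**Figure D5:**
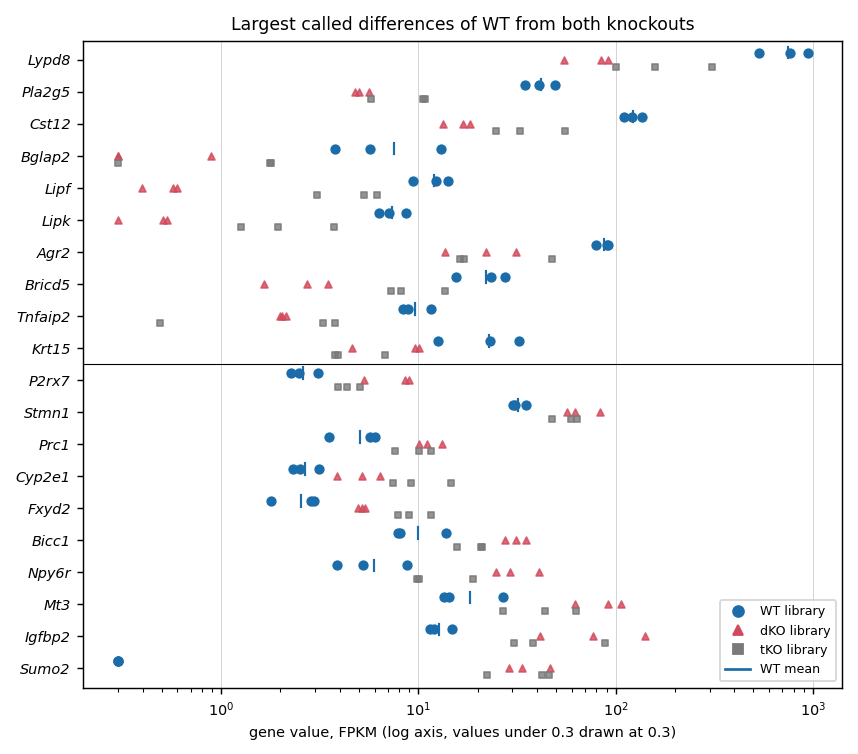
The 10 largest differences in each direction between WT and both knockouts among called genes whose 3 WT libraries lie all above (upper 10 rows) or all below (lower 10 rows) the 6 knockout libraries; points are libraries in FPKM on a log axis, with values under 0.3 drawn at 0.3. The WT libraries of Lypd8 lie at 531 to 944 FPKM against at most 307 in the knockouts, and Sumo2 is listed at 0 in WT.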

How the data were processed

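RNA-seq libraries of the initial segment were deposited by the authors as FPKM, per the file headers, 1 file per library and 1 value per transcript event (first exon, last exon, skipped exon and others); events at 0 are not listed. bcl2fastq 2.17.1.14 and DESeq appear in the submitters' processing notes, with no step attached. The sources used here do not name an aligner, genome build or strand setting, so reads of antisense partners cannot be told apart.

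Events were matched to GENCODE M21 (GRCm38) by splice site (81.5% of 36623 first exons and 82.4% of 21612 last exons), otherwise to the gene the files name within 5000 bases. This gave 17011 genes a value, 12525 from first exons and 4486 from last exons, and 14907 of 22028 protein-coding genes. At least 97.0% of the FPKM of either kind was placed in each library. Genes at 1 FPKM or more in at least 3 libraries were tested with limma 3.58.1 in R 4.3.3 on log2(FPKM + 1) with a mean-variance trend, 1 model of 9 libraries (6 residual and 2.88 prior degrees of freedom), and Benjamini-Hochberg adjusted over all 12078 genes. Differences are on that scale and understate low genes. Tested on simulated data for WT versus both knockouts with 11886 genes, it recovered 80 of 100 changes of size 1 and 96 of 100 of size 2. None was in the wrong direction, and 11 unchanged genes were called. The changed genes were drawn only from genes above a higher floor than the filter of the test, with independent normal noise. Recovery among lower genes was therefore not measured, and outlying libraries were not simulated. Python 3.11.15, pandas 2.3.3 and matplotlib 3.10.9 were used for the rest.

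Named genes are the targeted genes, the 4 markers, the 25 highest by WT mean, up to 8 of the highest members per list and members listed at 0 in WT, the 10 with the largest WT spread, and the 10 largest called differences each way with groups that do not overlap. Predicted genes were left out of the last rule. Lists were partly set by symbol patterns and take in some other genes: Trpc4ap and Scnm1 are not channels, Gpr107 and Gpr108 are not classical receptors, Slc9a3r1 is not a carrier, and Lrpap1 and Dab2 are receptor partners. The members and lists were chosen with earlier results of these data known. The alternatives tried were another pseudocount, no filter, first or last exons only, median-ratio scaling, a replicate block, no variance trend and leaving out each library. Some genes are not reported here. A fit of the genes above 0 in all 9 libraries was chosen after seeing the data.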

Additional observations from a re-analysis of the deposited data

How the results depend on the processing

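The 3 counts of called genes depended most on which library was left out. For WT against both knockouts the count of 166 became 32 to 237, for WT against dKO the count of 457 became 106 to 449, and for WT against tKO the count of 20 became 6 to 154. The lowest count came without WT replicate 2 in each comparison, and the highest without tKO replicate 1 in the first and last. Without a filter on low values, where 17011 genes were tested, 99 genes were called against both knockouts. A replicate block gave 53, 235 and 5 calls in the 3 comparisons; the labels tie no number to a shared animal or day, deviations of same-numbered libraries correlated at -0.107 to 0.0127, and not every library correlated best with its own number. Of the 20 largest differences against both knockouts, the block ended 11 calls (limma adjusted p of at most 0.118). The cause of these changes was not tested. The other planned settings and the genes above 0 in all 9 libraries, a setting chosen after seeing the data, stayed within 1.5 times the counts. The split against both knockouts was 115 higher and 51 lower, and 126 and 46 with median-ratio scaling. The 10 highest genes held 18.2% by first exons only and 21.4% by last exons only, against 17.5%, and 17.4% to 17.7% without 1 WT library. Genes at 1 FPKM throughout numbered 7978 to 11005 over the settings. Of 567 named genes, the WT mean moved by more than the WT SD in 44 by first exons only and 106 by last exons only. No difference reversed among the calls. Depth is unknown, so which low values are reliable could not be judged.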
